A study of Danio rerio with 12 samples.

Results

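Cyclins, mitotic kinases and centromere genes are the genes that time cell division and pull the copied chromosomes apart. The rule that chose them reads gene symbols and no measured value. It takes the cyclins of types A, B, D and E, their kinases and the regulators of those kinases, the Aurora and Polo-like kinases, the spindle checkpoint, the centromere and kinetochore proteins, the mitotic kinesins, and the markers named with them. The rule found 69 of the 19983 rows of the count table, and 64 of them passed a filter of at least 1 CPM (the usual unit of counts scaled to library size) in at least 1 library, as did 16807 rows in all. Genes that the rule also covers but that no row matched include top2a, incenp, kif11, kif15, kif18, plk4, cenpa, cenpc and cenpf. They were not analysed here.

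The RNA came from whole zebrafish larvae of the transgenic line Tg(fli:EGFP), whose vessels carry a green fluorescent protein in all groups, at 120 hours post fertilization (hpf). The groups were control larvae, larvae labelled IC, and larvae given dextran-coated iron oxide nanoparticles (Dx-IONP). IC is not spelled out in the labels; iron is the remaining condition in their protocol, and the sources used here give neither dose nor exposure time. Each group was 1 pool of 20 embryos made into 1 library, read on 4 lanes, so lanes are not replicates and no difference below has a replicate check.

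In dividing cells, D-type cyclins answer growth signals and pair with the kinases CDK4 and CDK6, cyclin E with CDK2 opens DNA replication, and cyclins A and B with CDK1 carry the cell into mitosis. Kinetochores then assemble on centromeres and grip the spindle, and the spindle checkpoint holds back CDC20, the activator of the anaphase-promoting complex, until every chromosome is attached. The roles below are those known from human and other vertebrate cells. Many of these messages are made only in cycling cells and are cleared as cells differentiate. In larvae of this age, cycling cells are known from the rim of the retina, the brain's ventricular zones, gut, fins and blood-forming tissue. In RNA from whole larvae, fewer dividing cells and less RNA per dividing cell cannot be told apart.

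Most of the cell division genes were highest in the Dx-IONP library, and most were lowest in the IC library. Of the 64 that passed the filter, 49 (76.6%) had their highest CPM in Dx-IONP, against 39.8% of all genes, and 41 (64.1%) had their lowest CPM in IC, against 32.1% of all genes. Summed over all 69 rows, they reached 2229 CPM in control larvae, 1872 in IC and 3854 in Dx-IONP. Without CCND1, the row with the most counts in Dx-IONP, the sums were 2021, 1583 and 3051 CPM. Both places, highest in Dx-IONP and lowest in IC, held for 34 of the 64 (53.1%, against 21.1% of all genes). These ranks and sums used CPM scaled by TMM (edgeR's trimmed mean of M values) and were not repeated on total reads. On total reads the median log2 fold of the 64 in Dx-IONP against control was 0.35, against 0.72 with TMM. CDK4 and CDK6 had the opposite order, lowest in Dx-IONP and highest in IC, though the CDK6 lanes of Dx-IONP overlapped those of control.

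Calls of higher or lower needed a difference of 2-fold or more, with the whole exact 95% interval of the ratio, taken from the read counts, above or below equality. These intervals cover counting error only. Where 3 CPM values of a gene follow each other below, they are those of control, IC and Dx-IONP. In Dx-IONP against control, 21 of the 64 genes were higher (32.8%, against 21.0% of all genes) and 2 were lower (3.12%, against 24.3%). Their median log2 fold was 0.72, and that of all genes was 0.03. In IC against control, 4 were higher (6.25%, against 14.3% of all genes) and 19 were lower (29.7%, against 15.2%), with a median of -0.56 beside -0.001 for all genes. In Dx-IONP against IC, 39 were higher (60.9%, against 24.2%) and 2 were lower (3.12%, against 26.6%), with a median of 1.45 beside 0.03.

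The 3 comparisons share libraries, so they are not separate evidence. Of the 21 genes higher in Dx-IONP than in control, 19 passed the rule in neither direction in IC against control, 1 was also higher there and 1 was lower. Of the 19 lower in IC than in control, 18 did not pass the rule in Dx-IONP against control. Most genes pass in neither direction: of all 16807 genes, 11846 did not pass in IC against control and 9200 in Dx-IONP against control. Whether the cell division genes overlapped less than other genes was not tested. At 1.5-fold, 34 genes were higher and 3 lower in Dx-IONP than in control (all genes 31.7% and 32.7%), 6 higher and 31 lower in IC than in control (26.7% and 27.5%), and 50 higher and 2 lower in Dx-IONP than in IC (34.7% and 34.6%). Scaled to total reads, the median of all genes in Dx-IONP against control was -0.35. In that comparison 11 genes were then higher (17.2%, against 13.8% of all genes) and 2 lower (3.12%, against 31.9%).

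**Figure D1:**
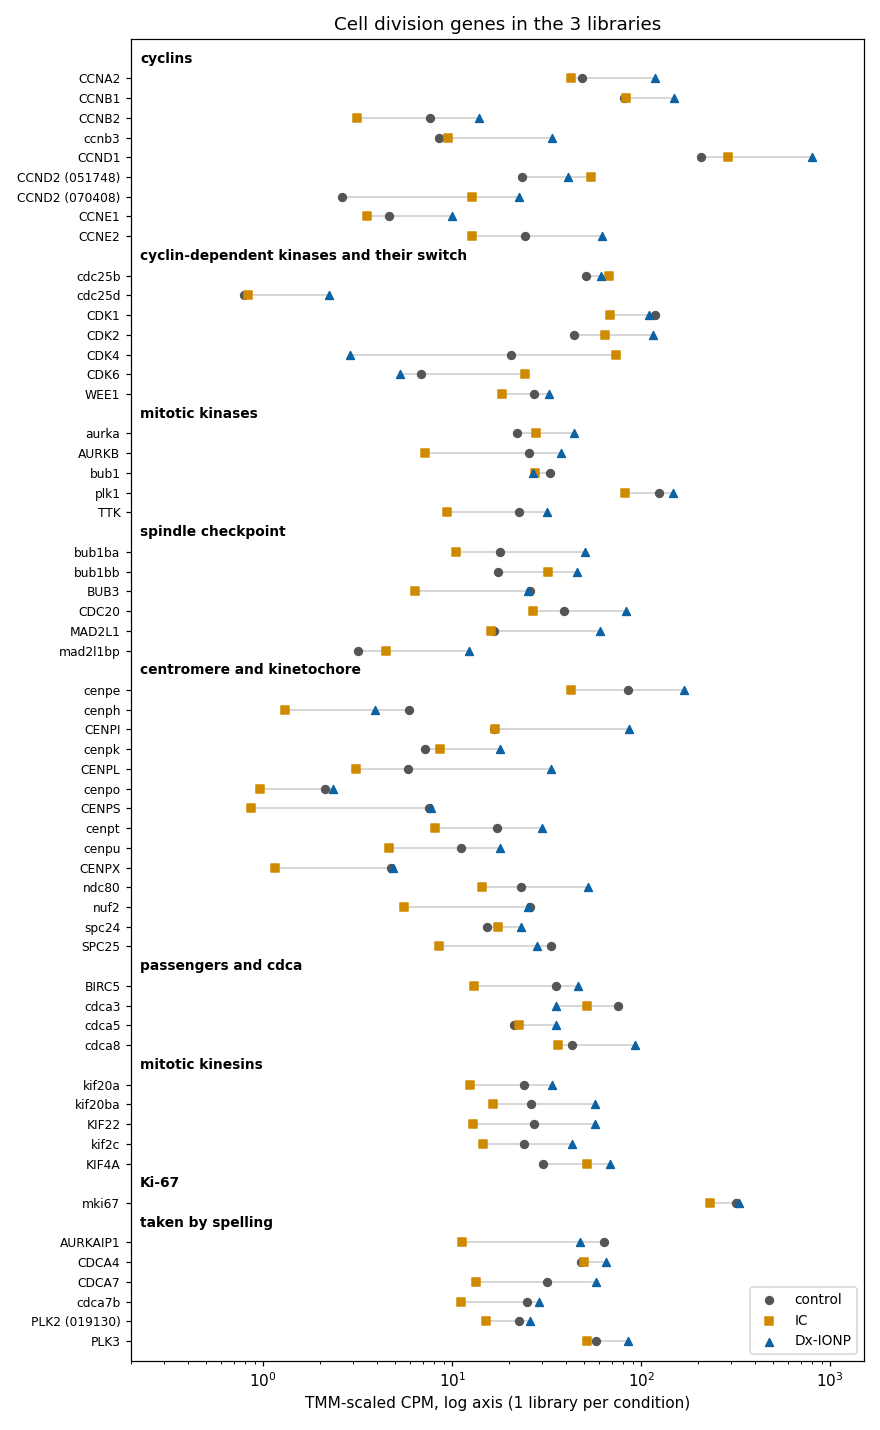
Level of 57 of the 58 named cell division genes in control, IC and Dx-IONP larvae, in CPM scaled by TMM (edgeR's trimmed mean of M values) on a log axis, with 1 library per condition. Read along a row only, since CPM is not corrected for transcript length. Most triangles (Dx-IONP) lie at the right end of their row and most squares (IC) at the left, whereas CDK4 runs from 2.89 CPM in Dx-IONP to 73.3 in IC. KIF23 is left out because it was listed at 0 in IC.

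Cyclins were higher in Dx-IONP than in control for 6 of the 9 that passed the filter (66.7%, against 21.0% of all genes) and lower for none, with a median log2 fold of 1.28. Cyclin D1, CCND1 (ENSDARG00000101637), the D-type cyclin that growth signals induce, had 208 CPM in control larvae, 289 in IC and 802 in Dx-IONP. Its lanes ran from 202 to 216 in control larvae, from 270 to 310 in IC and from 770 to 819 in Dx-IONP, so the libraries did not overlap. The log2 fold of Dx-IONP against control was 1.95 (95% counting interval 1.93 to 1.98), or 3.87-fold.

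The name table pairs 2 rows with CCND2, cyclin D2, which serves the same kinases. The row ENSDARG00000070408 had 2.62 CPM in control larvae, 12.8 in IC and 22.7 in Dx-IONP, 8.64-fold higher in Dx-IONP than in control (log2 interval 2.91 to 3.32) and 4.88-fold higher in IC (2.07 to 2.50). It was the only cell division gene that passed the rule as higher than control in both exposed libraries. The row ENSDARG00000051748 had 23.5 CPM in control larvae, 54.0 in IC and 40.9 in Dx-IONP, and was higher than control by the rule only in IC (log2 fold 1.20, 1.12 to 1.28). Salmon shares reads among similar transcripts, so the division of reads between these paralogs is uncertain. No test asked whether the 2 rows differ.

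The cyclins of replication and mitosis had other patterns from cyclin D2 in IC. CCNE2, a cyclin E that starts replication with CDK2, had 24.3 CPM in control larvae, 12.7 in IC and 61.8 in Dx-IONP. CCNE1, its paralog, had 4.61, 3.54 and 9.94 CPM in the same order. Both were higher in Dx-IONP than in control, 2.54-fold (log2 interval 1.27 to 1.43) and 2.16-fold (0.92 to 1.30), though CCNE1 no longer passed the rule without lane 4. CCNA2, the cyclin A of dividing body cells, had 48.7 CPM in control larvae, 42.4 in IC and 118 in Dx-IONP, a log2 fold of 1.28 (1.22 to 1.33) in Dx-IONP against control.

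CCNB1, the main cyclin of mitotic entry, had 80.7 CPM in control larvae, 82.6 in IC and 149 in Dx-IONP, and stayed short of 2-fold in every comparison. CCNB2, a related B-type cyclin, had 7.61, 3.15 and 13.8 CPM and was lower in IC than in control (log2 fold -1.27, -1.53 to -1.02). The B-type cyclin ccnb3 had 8.55, 9.54 and 33.9 CPM, close together in control and IC and 3.96-fold higher in Dx-IONP than in control (log2 interval 1.86 to 2.11). Scaled to total reads, CCNA2, CCNE1 and CCNE2 did not reach 2-fold in Dx-IONP against control, and CCND1, ccnb3 and the CCND2 row ENSDARG00000070408 did.

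Of the 7 cyclin-dependent kinases and their switch genes, 2 were higher in Dx-IONP than in control (28.6%, against 21.0% of all genes). In that comparison 1 was lower (14.3%, against 24.3%). The median log2 fold was 0.26, and it became -0.11 when scaled to total reads. In IC, 2 were higher than control (28.6%, against 14.3% of all genes) and none lower (against 15.2%). CDK4 (ENSDARG00000087937), a partner of the D-type cyclins, had 20.3 CPM in control larvae, 73.3 in IC and 2.89 in Dx-IONP. Its lanes ran from 19.7 to 20.8 in control, from 70.1 to 76.0 in IC and from 2.24 to 3.70 in Dx-IONP. It was 7.05-fold lower in Dx-IONP than in control (log2 interval -3.08 to -2.57) and 3.60-fold higher in IC than in control (1.77 to 1.93), and Dx-IONP and IC lay 25.4-fold apart. CDK4 thus stood at its lowest in the library where CCND1 stood at its highest.

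CDK6 (ENSDARG00000070228), the other partner of the D-type cyclins, had 6.80 CPM in control larvae, 24.2 in IC and 5.31 in Dx-IONP. It was 3.57-fold higher in IC than in control (log2 interval 1.69 to 1.97), while the lanes of Dx-IONP, from 3.65 to 7.22 CPM, overlapped those of control, from 6.02 to 7.14. CDK4 and CDK6 were the only cell division genes lower in Dx-IONP than in IC by the rule. CDK2, the partner of cyclins E and A, had 44.2, 64.1 and 116 CPM, a log2 fold of 1.39 (1.33 to 1.45) in Dx-IONP against control.

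CDK1, the kinase of mitosis, had 118 CPM in control larvae, 68.6 in IC and 110.3 in Dx-IONP and passed the rule nowhere. WEE1, which adds the phosphates that hold CDK1 back, had 27.0, 18.3 and 32.4 CPM. The phosphatase gene cdc25b, whose product takes them off, had 50.8, 67.2 and 61.2 CPM. None of these 3 regulators of mitotic entry was 2-fold apart between any pair of libraries. The related gene cdc25d was higher in Dx-IONP at low levels, with 0.795, 0.826 and 2.23 CPM (log2 fold against control 1.46, 1.05 to 1.94).

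**Figure D2:**
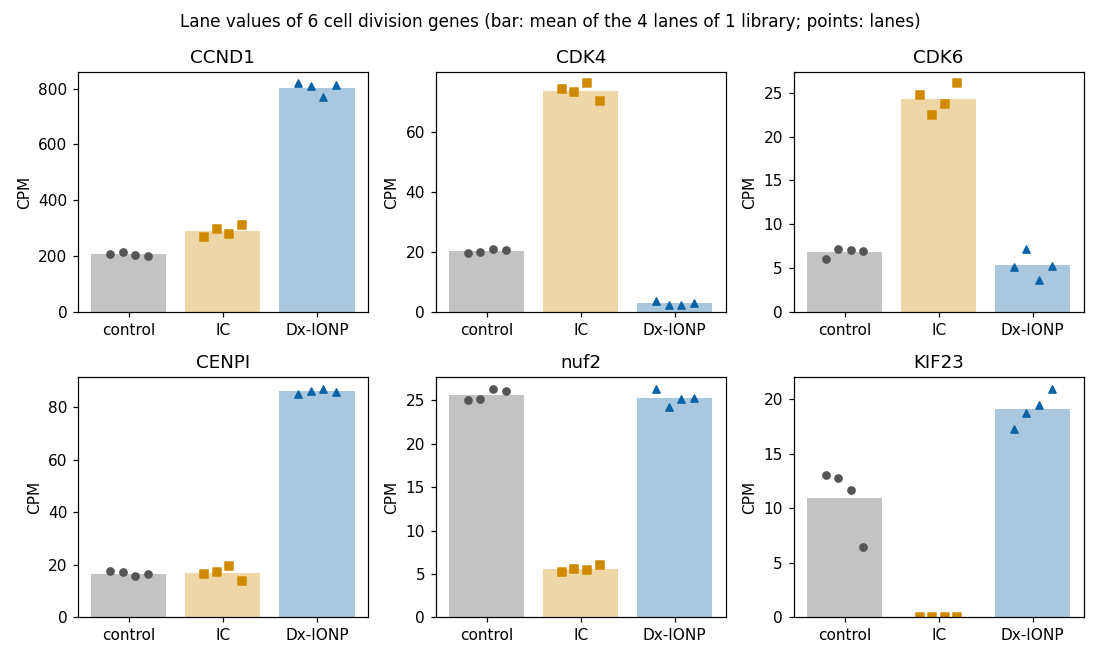
Lane values of 6 cell division genes in CPM on linear axes from 0, with the mean of the 4 lanes of each library as a bar. CCND1 and CENPI are highest in Dx-IONP, CDK4 and CDK6 are highest in IC, nuf2 is lowest in IC, and KIF23 is listed at 0 in IC. Lanes are repeat readings of 1 library and show counting and lane error only.

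Of the 5 mitotic kinases none passed the rule in Dx-IONP against control, where 21.0% of all genes were higher and 24.3% lower. In IC 2 were lower than control (40.0%, against 15.2% of all genes). AURKB (ENSDARG00000037640), the Aurora kinase that corrects faulty attachments at centromeres, had 25.4 CPM in control larvae, 7.22 in IC and 37.8 in Dx-IONP, 3.51-fold lower in IC than in control (log2 interval -1.98 to -1.65). TTK, the kinase that starts the spindle checkpoint, had 22.6, 9.36 and 31.7 CPM (-1.27, -1.42 to -1.12). Both were also lower in IC than in Dx-IONP.

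The other 3 kinases lay closer together. The Aurora kinase of spindle poles, aurka, had 22.1 CPM in control larvae, 27.9 in IC and 44.1 in Dx-IONP. Its log2 fold of 0.997 (0.91 to 1.09) against control fell just short of 2-fold, and it passed with DESeq2's size factors or without lane 2. The Polo-like kinase plk1, which acts from mitotic entry to cell separation, had 124, 82.1 and 148 CPM. The checkpoint kinase bub1 had 32.9, 27.4 and 26.9 CPM, and its Dx-IONP lanes overlapped those of IC and those of control. Its Dx-IONP lanes were uneven, from 20.2 to 36.2 CPM, more than sampling noise allows (chi-square 60.1 on 3 degrees of freedom).

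As grouped here, spindle checkpoint genes had the highest role median in Dx-IONP against control, a log2 fold of 1.45. In this role 5 of 6 were higher (83.3%, against 21.0% of all genes). The checkpoint kinases TTK and bub1 were counted with the mitotic kinases, at 0.49 and -0.29 in that comparison. The share and the ranking rest on that grouping. MAD2L1 (ENSDARG00000004713), which encodes Mad2, the protein that binds and blocks CDC20, had 16.7 CPM in control larvae, 16.0 in IC and 60.7 in Dx-IONP, 3.63-fold higher than control (log2 interval 1.77 to 1.95). Its partner in switching the checkpoint off, mad2l1bp, had 3.17, 4.44 and 12.3 CPM (log2 fold 1.94, 1.75 to 2.16). In IC the lanes of MAD2L1 overlapped those of control, and the lanes of mad2l1bp lay above them, short of 2-fold (log2 fold 0.48, 0.23 to 0.74).

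CDC20, the target of the checkpoint, had 39.1 CPM in control larvae, 26.8 in IC and 82.8 in Dx-IONP (1.08, 1.02 to 1.15). Zebrafish has a pair of genes for the checkpoint protein BubR1. One of them, bub1ba, had 17.9, 10.5 and 50.5 CPM (2.83-fold, log2 interval 1.41 to 1.59), and the other, bub1bb, had 17.4, 32.1 and 45.9 CPM (2.63-fold, 1.30 to 1.49). The counting intervals of the paralogs overlapped in Dx-IONP against control, and the paralogs lay on opposite sides of control in IC, though neither passed the rule there. BUB3, which brings these proteins to kinetochores, was the member of this role that did not pass the rule in Dx-IONP against control. It had 25.7, 6.37 and 25.2 CPM and was 4.04-fold lower in IC than in control (log2 interval -2.19 to -1.85). With scaling to total reads, 4 of the 6 (66.7%, against 13.8% of all genes) were higher in Dx-IONP than in control, without CDC20.

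Centromere and kinetochore genes were the largest role, with 18 genes that all passed the filter. Against control, 4 were higher in Dx-IONP (22.2%, near the 21.0% of all genes) and none lower, with a median of 0.48. In IC 9 were lower (50.0%, against 15.2% of all genes) and none higher, with a median of -0.96. Between Dx-IONP and IC, 15 of 18 were higher in Dx-IONP (83.3%, against 24.2% of all genes), with a median of 1.78. With total reads as the scale, 2 were higher in Dx-IONP than in control (11.1%, against 13.8% of all genes). On that scale 9 were lower in IC than in control (50.0%, against 16.9%).

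CENPL (ENSDARG00000038802) and CENPI (ENSDARG00000052565), subunits of the protein network that stays on centromeres through the cell cycle, were the farthest above control in Dx-IONP. CENPI had 16.7 CPM in control larvae, 16.9 in IC and 86.0 in Dx-IONP, 5.16-fold higher than control (log2 interval 2.28 to 2.45). Its lanes in Dx-IONP ran from 85.1 to 87.1 CPM, and those of control and IC overlapped. CENPL had 5.82, 3.09 and 33.2 CPM, 5.70-fold higher in Dx-IONP than in control (2.37 to 2.65).

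Partners of CENPI in the same network did not share its values. The gene cenpk had 7.13 CPM in control larvae, 8.57 in IC and 18.0 in Dx-IONP (log2 fold against control 1.33, 1.19 to 1.48), a call that was lost when scaled to total reads. The gene cenph had 5.89, 1.30 and 3.92 CPM and was lower in IC than in control (-2.16, -2.57 to -1.81). The motor gene cenpe, whose product carries chromosomes to the spindle's middle, had 85.4, 42.3 and 168 CPM. It lay at log2 folds of 0.98 (0.93 to 1.02) in Dx-IONP and -1.01 (-1.08 to -0.94) in IC against control, on either side of the 2-fold limit. Without lane 4 both of its calls changed, to higher in Dx-IONP and to none in IC.

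CENPS, CENPX, cenpt and cenpw encode histone-fold proteins that wrap centromeric DNA together. CENPS (ENSDARG00000070485) had 7.50 CPM in control larvae, 0.87 in IC and 7.73 in Dx-IONP, 8.67-fold lower in IC than in control (log2 interval -3.59 to -2.68). Its control lanes were uneven, from 5.13 to 9.24 CPM, and IC held 44 reads. CENPX had 4.73, 1.16 and 4.84 CPM (4.07-fold lower in IC than in control, log2 interval -2.44 to -1.63). Both genes, small partners that also serve DNA crosslink repair in vertebrates, lay within counting error of control in Dx-IONP and were low in IC. The gene cenpt had 17.3, 8.10 and 29.7 CPM (-1.09, -1.26 to -0.94), and cenpw had 10.7, 6.27 and 18.9 CPM and passed the rule only between Dx-IONP and IC.

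The gene cenpu had 11.1 CPM in control larvae, 4.62 in IC and 17.9 in Dx-IONP (log2 fold of IC against control -1.26, -1.47 to -1.06). The gene cenpo had 2.13, 0.96 and 2.34 CPM (-1.12, -1.62 to -0.68), a call that was lost without lane 2 or lane 4. The remaining 3 centromere genes, CENPP, CENPV and cenpn, ranged from 1.37 to 10.3 CPM and passed the rule against control in neither library. CENPP lay at a log2 fold of -0.23 in IC against control, with overlapping lanes. Between Dx-IONP and IC, cenpn was 2.30-fold higher in Dx-IONP and passed the rule.

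The 4 genes of the Ndc80 complex, the kinetochore's grip on microtubules, encode subunits that work as 1 unit. The gene nuf2 (ENSDARG00000034624) had 25.7 CPM in control larvae, 5.59 in IC and 25.3 in Dx-IONP, 4.597-fold lower in IC than in control (log2 interval -2.38 to -2.02). SPC25 had 33.4, 8.54 and 28.0 CPM, 3.92-fold lower in IC (-2.12 to -1.82). These 2 were low in IC and short of 2-fold from control in Dx-IONP. The gene ndc80 had 23.0, 14.3 and 52.2 CPM and was higher in Dx-IONP than in control (2.27-fold, log2 interval 1.098 to 1.266), a call that was lost when scaled to total reads, at a log2 fold of 0.81. The last subunit gene, spc24, had 15.3, 17.4 and 23.0 CPM and passed the rule nowhere.

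**Figure D3:**
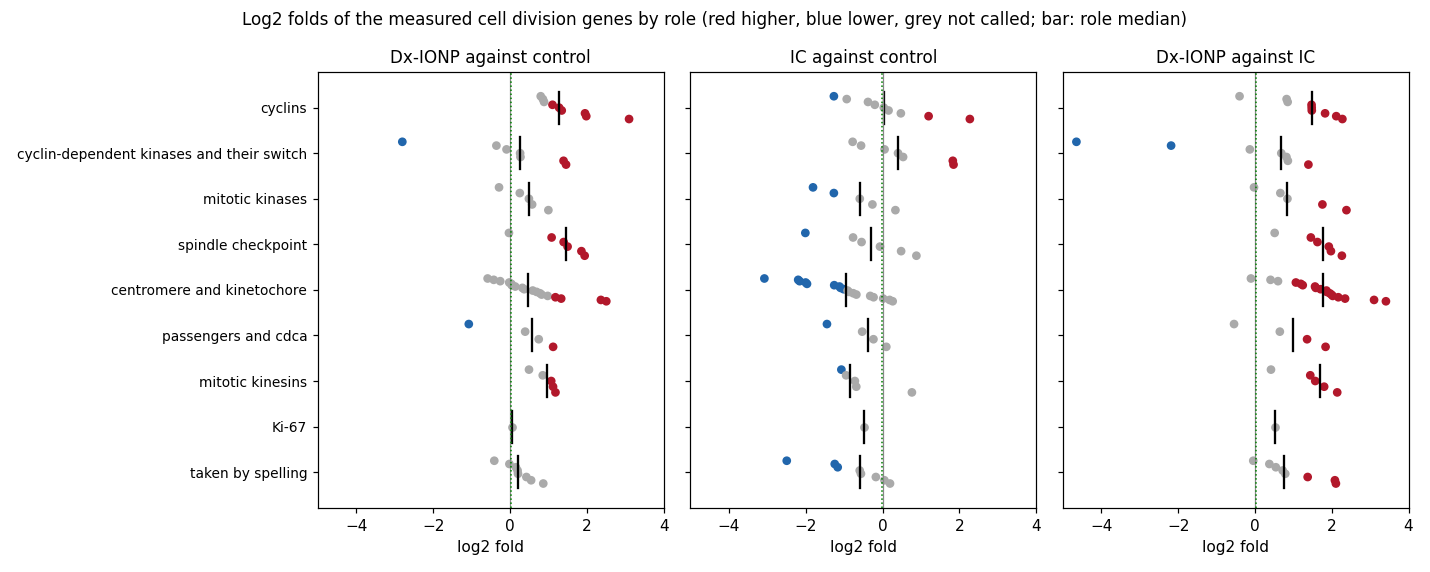
Log2 fold of each measured cell division gene by role, in 3 comparisons of single libraries. Points are genes (red higher, blue lower, grey neither by the 2-fold rule), black bars are role medians and the dotted line is the median of all genes, which lies within 0.03 of 0. Spindle checkpoint genes and cyclins lie to the right in Dx-IONP against control, and centromere genes to the left in IC against control. KIF23, listed at 0 in IC, is not drawn.

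Of the 4 measured chromosomal passenger and cdca genes, 1 was higher and 1 lower in Dx-IONP than in control. These shares are near the 21.0% higher and 24.3% lower among all genes. In IC 1 of the 4 was lower than control, against 15.2% of all genes. Among the passenger genes, which act with AURKB, cdca8 encodes borealin and BIRC5 survivin. The gene cdca8 had 42.9 CPM in control larvae, 36.4 in IC and 93.2 in Dx-IONP (log2 fold of Dx-IONP against control 1.12, 1.06 to 1.18). BIRC5 had 35.4, 12.96 and 46.4 CPM and was lower in IC than in control (-1.45, -1.57 to -1.33). The call of cdca8 was lost when scaled to total reads, at a log2 fold of 0.75.

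Of the genes named cdca for the cell division cycle, cdca5, for sororin, which protects the tie between sister chromatids, had 21.2 CPM in control larvae, 22.7 in IC and 35.5 in Dx-IONP and passed nowhere. The gene cdca3 (ENSDARG00000070656), which helps to remove Wee1 at mitotic entry, had 75.0, 52.0 and 35.6 CPM. It was 2.11-fold lower in Dx-IONP than in control (log2 interval -1.15 to -0.998). With CDK4 it was 1 of the 2 cell division genes lower by the rule in that comparison.

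Mitotic kinesins, the motors that shape the spindle and the cell's midzone, were higher in Dx-IONP than in control for 3 of 6 (50.0%, against 21.0% of all genes; median log2 fold 0.96). KIF4A and KIF22 are motors that bind chromosome arms. KIF4A had 30.3 CPM in control larvae, 51.4 in IC and 68.7 in Dx-IONP (1.18, 1.11 to 1.26). KIF22 (ENSDARG00000102624) had 27.1, 12.9 and 57.1 CPM, with log2 folds of 1.07 (0.99 to 1.15) in Dx-IONP and -1.07 (-1.20 to -0.95) in IC against control. It was the only cell division gene counted as higher in Dx-IONP and lower in IC.

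The gene kif20ba, for a kinesin of cell separation, had 26.3 CPM in control larvae, 16.3 in IC and 57.1 in Dx-IONP (1.12, 1.04 to 1.20). The midzone kinesin kif20a had 24.0, 12.4 and 33.8 CPM, and kif2c, which takes microtubule ends apart at centromeres, had 23.9, 14.5 and 43.1 CPM. Both passed the rule only between Dx-IONP and IC. When reads were scaled to library totals, none of the 6 kinesins was 2-fold above control in Dx-IONP (against 13.8% of all genes). On that scale 3 were lower in IC than in control (50.0%, against 16.9% of all genes). With TMM, 2 were lower there (33.3%, against 15.2% of all genes). Both counts include KIF23, which was listed at 0 in IC.

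KIF23 (ENSDARG00000014943), the kinesin of the central spindle that cell separation needs, had 10.97 CPM in control larvae and 19.1 CPM in Dx-IONP, and was listed at 0 in IC. A failed estimate and absent RNA cannot be told apart at an exact 0 in estimated counts, so no fold is given. SMC2 and SMC3, condensin and cohesin core genes, were listed at 0 in all 3 libraries, whereas KIF23 was at 0 in IC only. Without KIF23, an alternative chosen after the data were seen, 18 of 63 genes were lower in IC than in control and 38 of 63 higher in Dx-IONP than in IC. The shares of all genes were 15.2% and 24.2%. Its control lanes were uneven, with 13.02, 12.8, 11.7 and 6.42 CPM from lane 1 to lane 4, more than sampling noise allows (chi-square 60.8 on 3 degrees of freedom). Why IC was at 0 was not tested.

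The proliferation marker mki67 (ENSDARG00000091150), whose protein coats mitotic chromosomes, had 318 CPM in control larvae, 229.8 in IC and 331 in Dx-IONP. It lay at a log2 fold of 0.06 (0.03 to 0.08) in Dx-IONP and -0.47 (-0.50 to -0.44) in IC against control. On the scale of total reads, mki67 lay at -0.31 in Dx-IONP against control and at -0.54 in IC against control.

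The symbol rule also took 9 rows by spelling whose products are known for other work. None of the 8 that passed the filter was 2-fold apart in Dx-IONP against control, where 21.0% of all genes were higher and 24.3% lower. In IC 3 were lower than control (37.5%, against 15.2% of all genes). AURKAIP1, a protein of the mitochondrial ribosome, had 63.2 CPM in control larvae, 11.2 in IC and 47.6 in Dx-IONP (log2 fold of IC against control -2.49, -2.62 to -2.37). CDCA7 and cdca7b, whose product helps to remodel chromatin for DNA methylation, had 31.8, 13.4 and 57.8 CPM and 24.9, 11.1 and 28.7 CPM. Both were lower in IC, at -1.24 and -1.17.

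The stress-responsive Polo-like kinase PLK3 had 58.0 CPM in control larvae, 51.4 in IC and 84.7 in Dx-IONP. Of the 2 rows named PLK2, a kinase of stressed cells and neurons, ENSDARG00000019130 had 22.7, 15.0 and 25.9 CPM and ENSDARG00000090752 had 17.4, 11.78 and 17.2. CDCA4, a regulator of transcription, had 48.2, 49.9 and 64.7 CPM, and MAD2L2, which serves DNA damage bypass, had 16.4, 18.7 and 18.2. Without the rows taken by spelling, 21 of 56 genes were higher in Dx-IONP than in control (37.5%, against 21.0% of all genes). Of those 56, 16 were lower in IC than in control (28.6%, against 15.2%). The 5 rows that did not pass the filter were CCNA1, ccnd3, birc5b and cdca9, from 0.059 to 0.695 CPM, and the meiotic gene CCNB1IP1, listed at 0 in all 3 libraries.

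The machinery around these genes was described from 5 further lists. Spindle and cytokinesis genes were higher in Dx-IONP than in control for 7 of 21 (33.3%, against 21.0% of all genes) and lower for 1 (median 0.46). In IC 5 were lower (23.8%, against 15.2% of all genes) and none higher (median -0.59). The kinetochore gene dsn1 had 26.1 CPM in control larvae, 15.6 in IC and 93.0 in Dx-IONP, and kntc1, a checkpoint gene, had 29.3, 36.7 and 86.2 CPM. TPX2, a spindle assembly factor, had 78.0, 30.8 and 101 CPM. Of the 2 rows named CIT, the citron kinase of cell separation, ENSDARG00000088825 had 5.25, 3.48 and 0.42 CPM and ENSDARG00000089856 had 36.4, 40.9 and 31.4.

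Genes of the anaphase-promoting complex and its regulators were higher in Dx-IONP than in control for 4 of 17 (23.5%, near the 21.0% of all genes) and lower for 1 (median 0.38). In IC 6 were lower (35.3%, against 15.2% of all genes) and 1 higher (median -0.81). ANAPC10, a small subunit of the complex, had 6.93 CPM in control larvae, 0.87 in IC and 8.23 in Dx-IONP. Its largest subunit's gene, ANAPC1, had 19.6, 11.1 and 50.3 CPM. The ubiquitin enzymes that work with the complex went opposite ways in IC, UBE2C with 26.4, 7.67 and 24.5 CPM and UBE2S with 67.3, 214.5 and 159.7 CPM. The activator gene fzr1b, which keeps the complex active in resting cells, had 22.6, 7.67 and 7.64 CPM.

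CDK inhibitors and partners were higher in Dx-IONP than in control for 4 of 15 (26.7%, near the 21.0% of all genes) and lower for 2 (median 0.50). In IC 4 were lower (26.7%, against 15.2% of all genes) and none higher (median -0.51). CKS1B, a small subunit of CDK complexes, had 38.4 CPM in control larvae, 37.2 in IC and 193 in Dx-IONP (log2 fold 2.33, 2.28 to 2.39). SKP2, which marks the inhibitor CDKN1B for destruction with CKS1B, had 23.3, 15.6 and 61.0 CPM. The inhibitor gene cdkn1ca had 52.0, 38.3 and 130 CPM and was also higher in Dx-IONP than in control (1.33, 1.27 to 1.38). The name CDKN1B covers 2 rows with different patterns. The row ENSDARG00000029018 had 91.9, 131 and 32.7 CPM and was lower in Dx-IONP than in control (-1.49, -1.57 to -1.41), whereas ENSDARG00000054271 had 58.2, 59.3 and 75.2 CPM and passed the rule in no comparison.

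Genes of Rb, E2F and the DREAM complex, which switch cell cycle promoters, were higher in Dx-IONP than in control for 3 of 18 (16.7%, below the 21.0% of all genes) and lower for none (median 0.29). In IC 1 was higher and 1 lower (5.56% each, against 14.3% and 15.2% of all genes), with a median of 0.005. MYBL2, the activating Myb protein of dividing cells, had 32.2 CPM in control larvae, 48.3 in IC and 65.9 in Dx-IONP. The row mybl2a had 20.2, 12.8 and 25.1 CPM and passed the rule in no comparison. The other genes higher in Dx-IONP than in control were LIN52, with 14.4, 10.5 and 41.5 CPM, and e2f2, with 9.65, 12.2 and 21.9. RBL2, the Rb relative of resting cells, had 31.0, 70.01 and 18.1 CPM and was the gene higher in IC than in control. The gene lower there was lin37, with 10.7, 3.11 and 7.22 CPM. Cohesin and condensin genes showed no common direction, with 3 of 22 higher and 3 lower in Dx-IONP than in control (median 0.24). Each is 13.6%, against 21.0% higher and 24.3% lower among all genes. In IC 1 was higher and 1 lower (4.55% each, against 14.3% and 15.2% of all genes), with a median of -0.14. Of the 2 rows named SMC1A, a cohesin core gene, ENSDARG00000055754 had 11.3, 16.8 and 0.72 CPM, and ENSDARG00000058203, with 233, 177 and 195 CPM, passed the rule in no comparison. The condensin gene NCAPG had 92.7, 64.3 and 30.7 CPM.

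**Figure D4:**
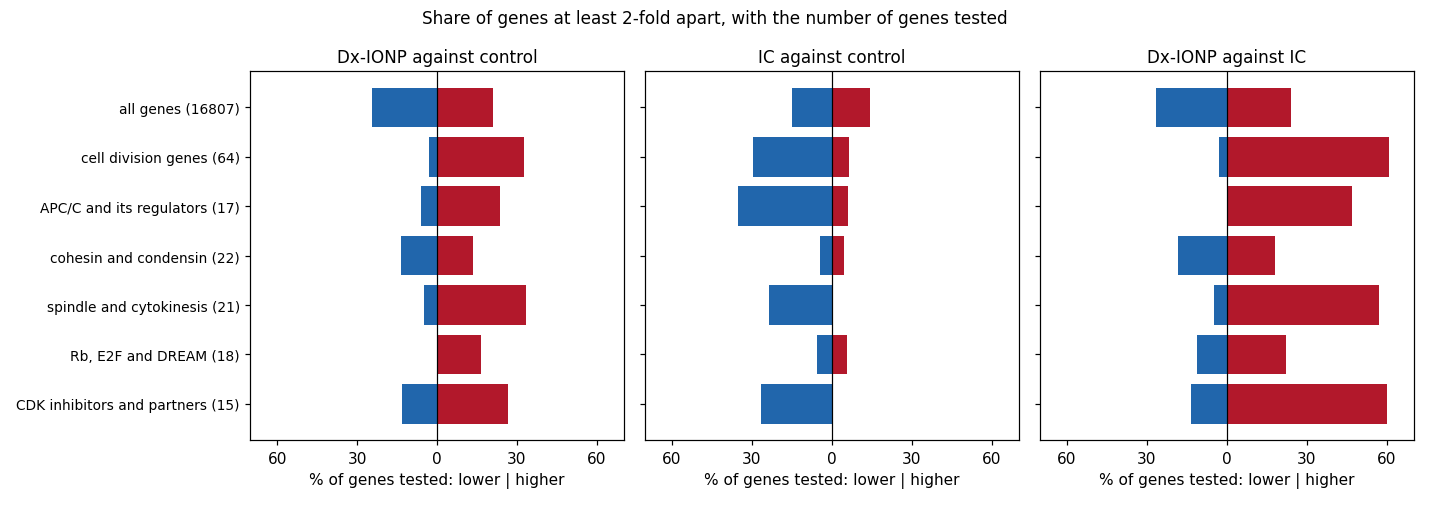
Share of genes at least 2-fold higher (red) or lower (blue) in each comparison of single libraries, for all 16807 genes, the 64 measured cell division genes and 5 lists of related genes, with the number tested in brackets. The cell division genes show 32.8% higher and 3.12% lower in Dx-IONP against control and 6.25% higher and 29.7% lower in IC against control.

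Markers of other cell types also differed between these libraries. Of all genes, 21.0% were higher and 24.3% lower in Dx-IONP than in control. Photoreceptor markers, of which 9 passed the filter, summed to 1739 CPM in control larvae, 892 in IC and 35.3 in Dx-IONP. In Dx-IONP 8 were lower than control (88.9%) and 1 higher (11.1%). Neuron markers, matched for only 5 of 12 names, summed to 1646, 1669 and 288 CPM, and all 5 were lower in Dx-IONP. Neural progenitor markers, also 5 of 12, summed to 181, 165 and 167 CPM, with 1 higher (20.0%) and none lower in Dx-IONP. The higher gene, msi1a, had 0.62, 0.88 and 5.88 CPM. Without SOX2, the sums were 95.9, 86.8 and 119.6 CPM, with Dx-IONP above control.

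Red cell markers summed to 1534, 849 and 4074 CPM in control, IC and Dx-IONP. In Dx-IONP 5 of 8 were higher than control (62.5%, against 21.0% of all genes) and none lower. Without hbae3, their sums were 442, 484 and 2342 CPM. Epidermal markers summed to 22427, 30504 and 105238 CPM. In Dx-IONP 5 of 9 were higher (55.6%) and 2 lower (22.2%, near the 24.3% of all genes). The keratin gene krt4 held most of the summed CPM, and without it the sums were 7523, 4855 and 7908 CPM. Fin and cartilage markers summed to 1077, 2213 and 2409 CPM, with 4 of 6 higher (66.7%) and none lower in Dx-IONP. Without and1, their sums were 648, 1627 and 1417 CPM, with IC above Dx-IONP. Intestine markers summed to 2003, 1661 and 2272 CPM, with 1 of 9 higher (11.1%) and 6 lower (66.7%) in Dx-IONP. Without apoa4b.1, which held most of it, the sums were 440, 399 and 389 CPM. These leave-outs, and that of SOX2, were chosen after the data were seen. In IC against control, 14.3% of all genes were higher and 15.2% lower. There 4 of 9 photoreceptor (44.4%), 1 of 5 neuron (20.0%) and 2 of 9 epidermal markers (22.2%) were lower and none higher. Of the red cell markers 4 were lower (50.0%) and 1 higher (12.5%) there. Of the intestine markers 5 were lower (55.6%) and 1 higher (11.1%). Of the fin and cartilage markers 3 were higher (50.0%) and none lower. Listed at 0 were the photoreceptor gene opn1sw2 in control and IC and opn1lw1 in Dx-IONP, 1 of 12 photoreceptor rows in each library, and no row of the other marker lists. The part of these tissues in the levels of the cell division genes was not tested.

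Read totals and lanes bear on all of these values. The control library held 84043873 reads, the IC library 48283541 and the Dx-IONP library 55381504, of which the cell division genes had 207433, 95177 and 182988. Over cell division genes with at least 10 reads per lane, the lanes of a library differed beyond the 95% limit of sampling noise in 38 of 192 cases (19.8%, against 5% from sampling alone). A list of 71 cytosolic ribosomal protein genes was added after the data were seen. In IC 61 of these 71 genes were lower than control (85.9%, against 15.2% of all genes), with a median log2 fold of -1.84. Whether the low values of CENPS, CENPX, nuf2, BUB3 and other cell division genes in IC moved with them was not tested.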

How the data were processed

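The deposited table holds the authors' estimated counts per gene and lane, unnormalized and written as whole numbers. The submitters' processing notes name GRCz11 as genome build, and as tools Salmon 1.6.0 and FastQC, with DESeq2 1.34.0 in R 4.1.2. The sources used here do not give their roles, the summing of transcripts to genes or the use of strand. Salmon shares reads among similar transcripts, so counts of paralogs are uncertain. Lanes of each library were summed, since per the labels' protocols 1 library was made per condition. Of 19983 rows, 494 were 0 throughout and 19182 had a symbol in the name table. CPM used TMM factors (edgeR 4.0.16, R 4.3.3) of 0.857 (Dx-IONP), 1.05 (IC) and 1.11 (control). Lane totals ran from 11847840 to 21329490 reads. Log2 folds used a prior count of 2, and intervals are exact Clopper-Pearson 95% intervals of the conditional binomial, which cover counting error only (Python 3.11.15, scipy 1.17.1). With 1 library per condition there was no test between conditions. The call rule was tested on simulated counts with sampling noise only and known library totals. That simulation could not test variation between pools or lanes, or the choice of scaling.

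The members and lists were chosen with earlier results of these data known. Values in every library are given for genes called in at least 2 of the 3 comparisons or with at least 20 CPM in their highest library (58 genes), and for up to 3 genes per further list and comparison. Genes of these lists were matched by symbol with or without a paralog letter. The other genes printed by value were chosen after their values were seen. Alternatives were scaling to total reads, DESeq2 1.42.0 size factors, no filter, a filter at 10 CPM, a prior count of 0.5, a 1.5-fold limit and each lane left out. Promoter and protein sequences, planned for a description, were not used here.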

Additional observations from a re-analysis of the deposited data

Results flagged for a closer look

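By the 2-fold rule, a pair of genes stood on opposite sides of control in the exposed libraries, a difference that was not tested. CDK4 was lower in Dx-IONP and higher in IC, with a log2 fold of -4.65 between them. KIF22 was higher in Dx-IONP and lower in IC, with 2.14 between them, and did not reach 2-fold above control in Dx-IONP when scaled to total reads.

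In 10 of 189 sets of 4 lanes, 1 lane stood apart from the other 3 by Dixon's limit, which chance gives in about 1 in 20 sets. In the Dx-IONP library these were cdc25b at 65.5 CPM in lane 2, CENPL at 36.9 in lane 4, plk1 at 143 in lane 3 and cenpe at 187 in lane 1. In the IC library they were cenpe at 44.9 CPM in lane 1, kif20ba at 14.6 in lane 4 and bub1bb at 33.8 in lane 1. In the control library they were CCNB1 at 86.6 CPM in lane 3, CDK6 at 6.02 in lane 1 and cenpw at 10.3 in lane 2.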

How the results depend on the processing

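The median log2 folds of the cell division genes in the 3 comparisons kept their sign under all alternatives run. Counts of genes higher or lower have no sign to keep. Scaled to total reads, genes higher in Dx-IONP than in control were 11 (17.2%, against 13.8% of all genes) in place of 21. The median log2 fold of the cell division genes was 0.35 in place of 0.72, while that of all genes moved from 0.03 to -0.35. Relative to the median of all genes it was 0.70, and 0.69 with TMM. The 10 calls lost there were CCNA2, CCNE1, CCNE2, CDC20, KIF22, KIF4A, cdca8, cenpk, kif20ba and ndc80. At 1.5-fold, 34 of 64 genes were higher in Dx-IONP than in control (against 31.7% of all genes). At that limit 31 of 64 were lower in IC than in control (against 27.5%). Over the settings that left out a lane, genes higher in Dx-IONP than in control were 21 to 22 of 64 (against 20.8% to 21.0% of all genes). Genes lower in IC than in control were 18 to 19 (against 15.2% to 15.4% of all genes). The median in Dx-IONP against control was 0.61 to 0.75. With no filter 23 of 68 genes were higher in Dx-IONP than in control (against 20.3% of all genes). With the filter at 10 CPM 19 of 56 were higher (against 21.8%). No named gene that was called turned its direction. No paired analysis was possible because the shared numbers are lanes of 1 library per condition. Depth limits the genes below 1 CPM.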
